A study of Mus musculus with 4 samples.

Results

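Ptgds (ENSMUSG00000015090) encodes lipocalin-type prostaglandin D synthase. It is described here as 1 of the 32285 genes counted in nuclei from the paraventricular nucleus (PVN) of the mouse hypothalamus, a centre of stress, fluid and feeding control. The gene was chosen from its levels in these same libraries, namely those in oligodendrocytes, fibroblasts, other glia and free RNA at each of 2 zeitgeber times (ZT, hours after lights on). Its own levels and their difference between times are therefore a description, with no test. The groups were 2 libraries taken at ZT20, in the dark phase, and 2 taken at ZT8, in the light phase. All 4 came from male C57BL/6 mice aged 10 weeks per the sample labels and 10 to 12 weeks per the design text. Each library pooled 5 micropunched PVNs before nuclei were isolated on a sucrose gradient, so 1 library mixes several animals and a punch can take in tissue next to the nucleus. No mutant, transgene or drug was used, and both times served as the only conditions.

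Lipocalin-type prostaglandin D synthase is a secreted protein with a double role. Inside cells it turns prostaglandin H2, the product of the cyclooxygenases, into prostaglandin D2, and outside cells, where it is also called beta-trace, it binds retinoids and other small lipids. In rodent brain it is known from oligodendrocytes, the leptomeninges and the choroid plexus. Prostaglandin D2 acts through the receptors DP1 (Ptgdr) and DP2 (Ptgdr2), and in mice DP1 signalling in the basal forebrain is known to promote sleep through adenosine.

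Nuclei were profiled with a droplet assay that counts the 3′ ends of transcripts as unique molecular identifiers (UMIs). At ZT20, replicate 1 held 63558166 UMIs in 8320 barcodes and replicate 2 held 61933800 in 9413. At ZT8, replicate 1 held 57970649 UMIs in 6453 barcodes and replicate 2 held 69223344 in 6923. After filtering, 7747 and 8667 barcodes at ZT20 and 6053 and 6513 at ZT8 were kept, 28980 in all. Their median depth was 3437 and 2063 UMIs at ZT20 and 4366 and 5148 UMIs at ZT8. ZT20 replicate 2 thus had the shallowest nuclei, and 3174 and 4238 barcodes at ZT20 against 1518 and 1664 at ZT8 fell into clusters with few UMIs and no cell type of their own. Any pair of libraries shared 10 to 25 barcode sequences. The labels do not say whether replicate libraries were made from different mice, so each p-value below measures the spread between these libraries, which may be technical.

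On mouse build mm10 (GENCODE M21), Ptgds lies on the minus strand at chr2:25466709-25470046, spans 3338 bases and has 5 annotated transcripts. No annotated gene overlaps it on either strand. The nearest genes are Paxx at 5615 bases, Clic3 at 7933 bases and the lipocalin gene Lcn12 at 20799 bases. The window from 250 bases before to 50 bases after the start given by RefSeq (GRCm38.p6) was searched on both strands for motifs bound by factors of the circadian clock, by AP-1 and by the basal machinery. The RefSeq start lies inside the GENCODE gene, so the whole window falls within the span of the longest annotated transcript, and positions are counted from the RefSeq start. The stretches that held a match are shown because the gene was followed over a day and a night time point, the match being in capitals.

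Ptgds stretch upstream of the RefSeq start (chr2:25469843-25469899, minus strand, positions -150 to -94): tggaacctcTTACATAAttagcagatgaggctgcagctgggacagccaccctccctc
Ptgds start-proximal stretch (chr2:25469765-25469791, minus strand, positions -42 to -16): ccaagccTGACTCATAAATAgggggtc

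The upstream stretch held 1 match to the D-box letters TTATGNAA, read on the other strand, at positions -141 to -134. D-boxes are bound by DBP and its relatives, and 3.52% of 27025 promoters of the same length held the letters. The start-proximal stretch held the AP-1 letters TGACTCA at positions -35 to -29, found in 5.17% of promoters, and the TATA-like letters ATAAATA at positions -29 to -23, found in 5.75%. The AP-1 and TATA-like matches share 1 base. No match to the E-box letters CACGTG, found in 7.24% of promoters, or to the ROR half-site AGGTCA, found in 16.04%, was present in this window. A match says only that the letters are there, and binding was not measured.

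Cell classes were called from clusters formed without Ptgds, and UMIs were summed per library and class and scaled to CPM, which sets the total of every class and library to one fixed size. A total of 33 clusters were obtained, of which 19 took a name from markers. The oligodendrocyte class was 1 cluster of 2916 nuclei led by St18, Prr5l and Mbp. All 12 oligodendrocyte markers on the list were above 10 CPM in it. They include Mbp, Mag and Mog, which encode proteins of the myelin sheath. The fibroblast class held 133 nuclei in 2 clusters. Cluster 24 was led by Cped1, Dcn, Slc7a11 and Apod, and cluster 28 by Bnc2, Fbxl7, Slc38a2 and Slc47a1. All 12 fibroblast markers were likewise detected in the class as a whole. The defining markers of both classes were thus present.

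In ZT20 nuclei Ptgds was highest in oligodendrocytes, and in ZT8 nuclei it was highest in fibroblasts. The level in oligodendrocytes was 1.90 times as high at ZT20 as at ZT8, while in fibroblasts it was 0.314 times the ZT8 level. In neurons it stood near 50 CPM at both times. Oligodendrocytes supplied 40.2 and 36.1% of all Ptgds UMIs in the ZT20 libraries and 36.3 and 35.7% in the ZT8 libraries, although they were 7.36 and 5.55% of nuclei at ZT20 and 14.8 and 14.9% at ZT8. Fibroblasts supplied 0.904 and 1.02% of the Ptgds UMIs at ZT20 and 7.88 and 6.81% at ZT8. Clusters with high doublet scores, which took no class name, supplied 17.5 and 19.1% at ZT20 and 16.7 and 16.9% at ZT8. The largest of them, cluster 9, was led by St18, Prr5l and Plcl1, and St18 and Prr5l also led the oligodendrocyte class. The part of oligodendrocyte RNA in these clusters was not tested.

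Among ZT20 libraries the mean order was oligodendrocytes at 2400 ± 83.9 CPM (SD, n = 2 for this and the following means), fibroblasts at 1067 ± 204, endothelial cells at 252 ± 104, tanycytes at 225 ± 42.2, ependymal cells at 195 ± 120, microglia at 185 ± 47.2, mural cells at 151 ± 32.6, astrocytes at 142 ± 2.71, oligodendrocyte precursors at 90.2 ± 14.6 and neurons at 52.5 ± 3.02. The 2 leading classes and the 2 last ones did not overlap with their neighbours. From endothelial cells down to astrocytes each class overlapped with the next in this order. Both libraries of endothelial cells and of tanycytes lay above those of mural cells and astrocytes, and both of microglia lay above those of astrocytes. Among ZT8 libraries fibroblasts stood first at 3395 ± 383 CPM. Mural cells at 1327 ± 890 overlapped both with oligodendrocytes at 1266 ± 1.11 and with endothelial cells at 776 ± 39.3, and oligodendrocytes were above endothelial cells in both libraries. Microglia at 210 ± 2.58, ependymal cells at 167 ± 125 and astrocytes at 165 ± 2.85 came next, and ependymal cells overlapped with both others. Precursors at 114 ± 8.53 and neurons at 53.7 ± 0.950 were again lowest. Tanycytes, glia of the ventricle wall, numbered 89 and 93 at ZT20 and 1 in each ZT8 library, so no ZT8 level is given for them.

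**Figure D1:**
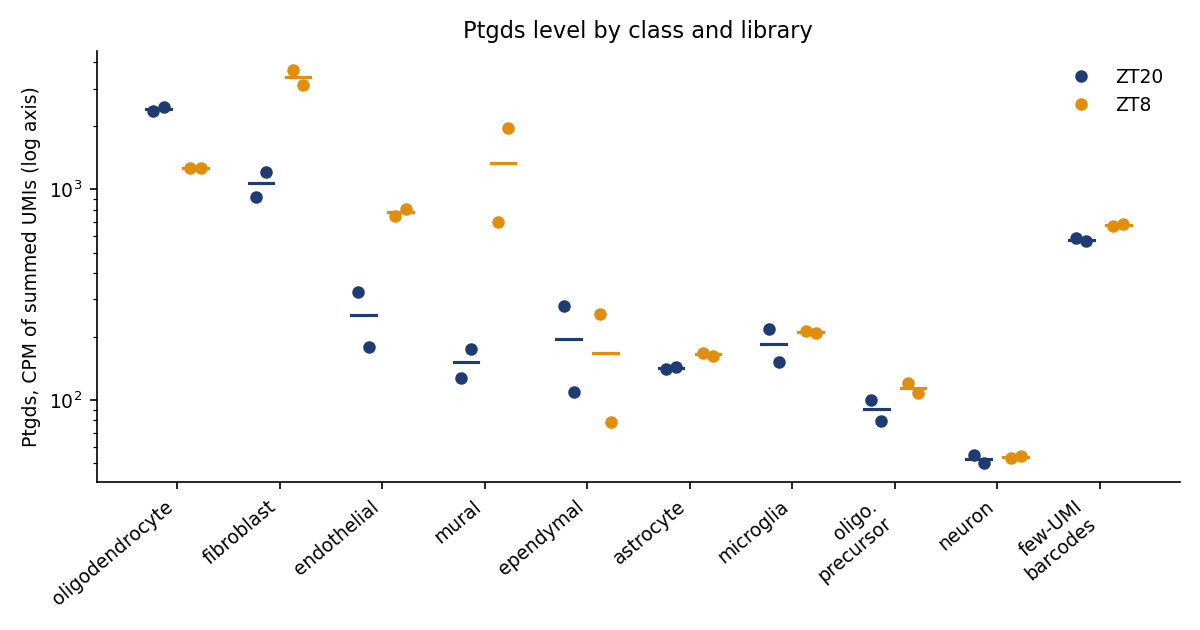
Ptgds level in CPM (log axis) by cell class, with 1 dot per library and a bar at the mean of the 2 libraries of a time, ZT20 left of ZT8. Oligodendrocytes stand at 2340 and 2459 CPM at ZT20 and at 1265 and 1267 CPM at ZT8, and neurons lie between 50.3 and 54.6 CPM at both times.

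In oligodendrocyte nuclei Ptgds reached 2340 and 2459 CPM at ZT20, against 1265 and 1267 CPM at ZT8. Both ZT20 libraries were above both ZT8 libraries, with a mean difference of 1133 CPM. Per nucleus this was 8.03 and 8.11 UMIs at ZT20 and 3.92 and 4.37 UMIs at ZT8, with median depths of 3219 and 3118 UMIs at ZT20 and 2842 and 3102 at ZT8. In the edgeR model over 12139 genes of this class, 134 genes had a larger rise at ZT20 than the log2 difference of 0.95 fitted to Ptgds. For background, 10.5% of all genes passed the threshold of that model in either direction.

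Nuclei with at least 1 Ptgds UMI made up 88.9% (95% exact binomial interval 86.1 to 91.4) and 86.7% (83.3 to 89.6) of oligodendrocytes at ZT20, and 81.3% (78.6 to 83.8) and 83.8% (81.4 to 86.1) at ZT8. In neurons, at median depths of 11908 and 11471 UMIs at ZT20 and 12018 and 13135 UMIs at ZT8, 47.8 and 44.8% of nuclei held a Ptgds UMI at ZT20 and 48.2 and 51.3% at ZT8. Neurons were taken as cells with little Ptgds RNA of their own. This share is given as the background that free RNA could reach at the depth of neurons. Intervals cover counting error only. After every nucleus was thinned to 1000 UMIs, the share in oligodendrocytes was 71.9 and 74.1% at ZT20 and 57.7 and 60.6% at ZT8, and the share in neurons 6.12 and 5.13% at ZT20 and 5.80 and 6.41% at ZT8. At equal depth the share in oligodendrocytes was thus far above that in neurons in all 4 libraries, and higher at ZT20 than at ZT8. Thinning takes more UMIs from the deeper neurons, so their thinned share is not a measure of free RNA at 1000 UMIs. In few-UMI barcodes deep enough for thinning, the share was 41.7 and 38.1% at ZT20 and 43.3 and 39.2% at ZT8. These values lay above the neuron shares and below the oligodendrocyte shares. The part of free RNA in the thinned shares was not tested.

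The whole distribution over oligodendrocytes was shifted. The median oligodendrocyte held 5 and 5 Ptgds UMIs at ZT20 and 2 and 3 at ZT8, and the 90th percentile was 18 and 19 UMIs at ZT20 and 9 and 10 at ZT8. Nuclei with 3 or more UMIs were 71.1 and 70.5% at ZT20 and 49.2 and 53.7% at ZT8. The highest single nucleus held 66 and 82 UMIs at ZT20 and 33 and 50 at ZT8. Without it the levels were 2312 and 2413 CPM at ZT20 and 1255 and 1254 CPM at ZT8, so no single nucleus carried the difference. When the oligodendrocytes of each library were cut into 4 equal bins by depth, the bins ran between 2109 and 2698 CPM at ZT20 and between 1134 and 1410 CPM at ZT8. No bin at ZT8 reached the lowest bin at ZT20.

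Ptgds was also uneven among oligodendrocytes of 1 library. In nuclei thinned to 1000 UMIs, the variance of its UMIs was 2.58 and 2.90 times the mean at ZT20 and 2.17 and 2.03 times at ZT8. For the myelin basic protein gene Mbp the same ratio was 1.295 and 1.293 at ZT20 and 1.21 and 1.27 at ZT8. A ratio of 1 is what counting alone gives.

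**Figure D2:**
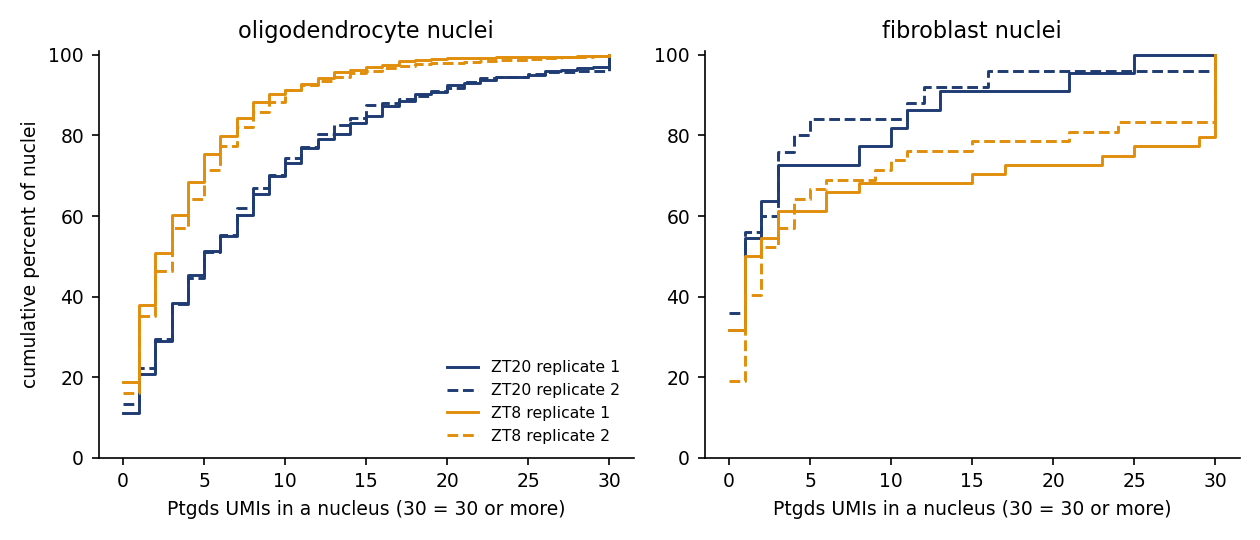
Cumulative percentage of nuclei (vertical axis) holding up to a given number of Ptgds UMIs (horizontal axis, 30 standing for 30 or more) for oligodendrocyte and fibroblast nuclei, with 1 line per library. The ZT20 lines run below and to the right of the ZT8 lines in oligodendrocytes, where the median nucleus held 5 and 5 UMIs at ZT20 and 2 and 3 at ZT8. The fibroblast lines start, at 0 UMIs, at 31.8 and 36.0% at ZT20 and 31.8 and 19.0% at ZT8. Fibroblast medians were 1 and 1 at ZT20 and 1.5 and 2 at ZT8, and 75th percentiles 6.75 and 3 at ZT20 and 23.5 and 10.75 at ZT8.

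The myelin gene Mbp was at 3012 and 2953 CPM in ZT20 oligodendrocytes and at 3173 and 3139 CPM in ZT8 oligodendrocytes. Of 13 myelin genes tested, 3 rose and 4 fell at ZT20, beside 5.66% of all genes higher and 4.89% lower, among them Ugt8a, a galactolipid synthase gene, at 0.14 and Opalin at -0.34, with a median log2 difference of -0.03 against -6.1e-05 for all genes tested. The summed level of the 12 oligodendrocyte markers was 17652 and 17736 CPM at ZT20 and 18245 and 18121 CPM at ZT8. Markers of other Ptgds-bearing cells were low in this class. The 12 fibroblast markers summed to 12.3 and 14.5 CPM at ZT20 and 25.7 and 21.5 CPM at ZT8, with 4 of the 12 at 0 in ZT20 replicate 1, and the 9 mural markers summed to 7.16 and 12.6 CPM at ZT20 and 52.5 and 48.0 CPM at ZT8. Choroid plexus cells are another source of Ptgds in brain. Apart from Enpp2, which oligodendrocytes express, the other 7 choroid plexus markers summed to 5.63 and 5.68 CPM at ZT20 and 6.15 and 6.56 CPM at ZT8.

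The way nuclei were called bears on the value. A rule that takes nuclei by marker UMIs alone, with no clustering, found 88 and 121 nuclei at ZT20 and 138 and 161 at ZT8, and gave 1447 CPM at ZT20 and 1240 CPM at ZT8, a log2 ratio of 0.22 in place of 0.92. Of the nuclei it took, 63.6 and 79.3% at ZT20 and 44.9 and 41.6% at ZT8 were few-UMI barcodes. A rule added after seeing this, with at least 20 marker UMIs making up at least 1% of a nucleus, gave 2331 CPM at ZT20 and 1242 CPM at ZT8, a log2 ratio of 0.91.

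Within the oligodendrocyte class, subclusters were formed without Ptgds, and all 4 had more of it at ZT20. Subcluster 2, led by Enpp6, Cntn3 and Anln, held the least, with 550 and 495 CPM at ZT20 and 360 and 387 CPM at ZT8, a ratio of 1.398. Enpp6, a choline phosphodiesterase, is a known marker of newly formed oligodendrocytes, but Anln is on the list of late mature genes. In cluster 22, outside this class, the newly formed markers were the best-scoring list. Subcluster 2 is therefore not assigned a stage. Subcluster 0, led by Ccnd3, Slc13a1, Apoe and Il33, stood at 2486 and 2362 CPM at ZT20 and 1429 and 1348 CPM at ZT8, a ratio of 1.75. Subcluster 1, led by Spock1, Pex5l and Neat1, held 3169 and 3332 CPM at ZT20 and 1912 and 2010 CPM at ZT8, a ratio of 1.66. Subcluster 3, led by Pcdh7, Nckap5 and Man1a, held 2976 and 3320 CPM at ZT20 and 1074 and 1094 CPM at ZT8, a ratio of 2.90, in 24 and 19 nuclei at ZT20 and 43 and 59 at ZT8. The spread over subclusters was as wide as that over times, since subcluster 2 at ZT20 lay below subclusters 0, 1 and 3 at ZT8.

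The shares of the subclusters differed too. Subcluster 1 made up 42.3 and 43.2% of oligodendrocytes at ZT20 and 26.4 and 28.0% at ZT8, and subcluster 0 made up 30.4 and 31.6% at ZT20 and 43.3 and 39.1% at ZT8. Their defining genes may themselves differ between the times, so these shares are not read as cell numbers. Subcluster levels from UMIs summed over the libraries of a time were also combined in the UMI shares, not nucleus shares, of the other time. With ZT20 levels in the ZT8 shares of UMIs, the class would have had 2247 CPM, against 2393 CPM in the ZT20 shares. With ZT8 levels in the ZT20 shares of UMIs it would have had 1383 CPM, against 1266 CPM in the ZT8 shares.

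**Figure D3:**
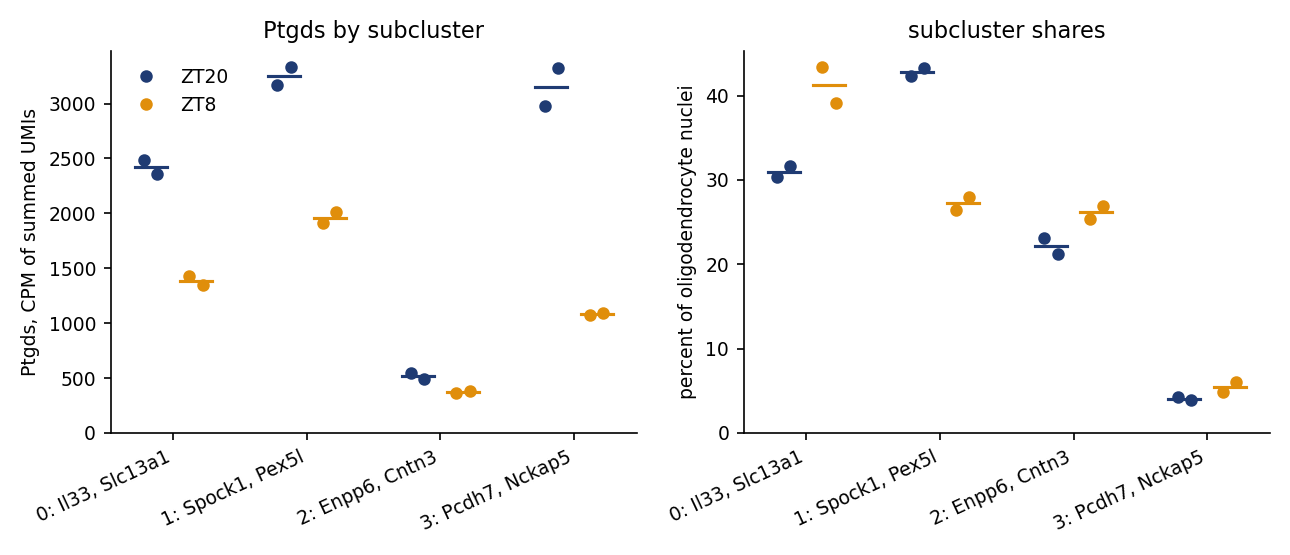
Ptgds level in CPM in 4 oligodendrocyte subclusters, and the share of oligodendrocytes in each, with 1 dot per library and ZT20 left of ZT8. All 4 subclusters were higher at ZT20, subcluster 2 stood lowest at 495 to 550 CPM at ZT20 and 360 to 387 CPM at ZT8, and subcluster 1 held 42.3 and 43.2% of the class at ZT20 against 26.4 and 28.0% at ZT8.

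Fibroblasts of the brain surround larger vessels and form the leptomeninges. In fibroblast nuclei Ptgds was at 923 and 1212 CPM at ZT20, against 3666 and 3124 CPM at ZT8, in 22 and 25 nuclei at ZT20 and 44 and 42 at ZT8. Both ZT20 libraries were below both ZT8 libraries, with a mean difference of -2328 CPM. The difference sat in few nuclei. The median fibroblast held 1 and 1 UMI at ZT20 and 1.5 and 2 at ZT8, while nuclei with over 40 UMIs numbered 0 and 1 at ZT20 and 8 and 6 at ZT8. The highest single nucleus held 25 and 43 UMIs at ZT20 and 119 and 181 at ZT8. Without it the levels were 707 and 759 CPM at ZT20 and 3252 and 2622 CPM at ZT8.

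The fibroblast class also differed in makeup. Cluster 24, led by Cped1 and Dcn, held 16 and 20 nuclei with 806 and 1473 CPM of Ptgds at ZT20, and 24 and 27 nuclei with 6163 and 3520 CPM at ZT8. Cluster 28 held 6 and 5 nuclei with 1263 and 336 CPM at ZT20, and 20 and 15 nuclei with 1136 and 2550 CPM at ZT8. In cluster 24 both ZT20 libraries were below both ZT8 libraries, and in cluster 28, with few nuclei, the libraries of the 2 times overlapped. Whether the difference between times differed between the clusters was not tested. Fibroblast markers summed to 4820 and 7149 CPM at ZT20 and 4394 and 4722 CPM at ZT8, and neuron markers in the same nuclei to 9174 and 4252 CPM at ZT20 and 5108 and 4799 CPM at ZT8. The part of neuron RNA in these nuclei was not tested.

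Vascular classes were lower at ZT20 as well, and their makeup shifted more. Mural cells, the pericytes and smooth muscle cells of vessels, had 128 and 174 CPM of Ptgds at ZT20 and 697 and 1956 CPM at ZT8. Cluster 20, with the smooth muscle genes Acta2 and Myh11, held 2 and 3 of the mural nuclei at ZT20 and 83 and 79 at ZT8. In the other mural cluster, number 23, the level was 133 and 166 CPM at ZT20 and 287 and 141 CPM at ZT8, so the times overlapped there. A single nucleus of ZT8 replicate 2 carried 400 Ptgds UMIs, and without the highest nucleus of each library mural cells stood at 102 and 135 CPM at ZT20 and 585 and 899 CPM at ZT8.

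Endothelial cells, which line the vessels, had 325 and 178 CPM at ZT20 and 748 and 804 CPM at ZT8. In cluster 15, which held 56 and 54 of their nuclei at ZT20 and 78 and 88 at ZT8, Ptgds was at 331 and 180 CPM at ZT20 and 848 and 734 CPM at ZT8. The other cluster, number 29 with Mgp and Eln, held 2 and 1 nuclei at ZT20 and 19 and 23 at ZT8. The highest endothelial nucleus held 8 and 5 UMIs at ZT20 and 57 and 74 at ZT8. After thinning to 1000 UMIs, 25.5 and 32.6% held Ptgds at ZT20 and 36.25 and 31.6% at ZT8, which overlapped. Of 12 myelin genes tested in endothelial nuclei 6 were lower at ZT20, beside 2.25% of all genes. Their median log2 difference was -1.32, against -0.006 for all genes. The part of oligodendrocyte RNA in the endothelial Ptgds values was not tested. Ependymal cells gave 280 and 109 CPM in 17 and 13 nuclei at ZT20 and 256 and 78.6 CPM in 11 and 14 nuclei at ZT8, and the times overlapped.

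Astrocytes, microglia, oligodendrocyte precursors, neurons and few-UMI barcodes held fewer than 1 Ptgds UMI per barcode. Astrocytes held 0.605 and 0.592 Ptgds UMIs per nucleus at ZT20 and 0.647 and 0.696 at ZT8. Neurons held 0.714 and 0.651 at ZT20 and 0.717 and 0.798 at ZT8, and few-UMI barcodes 0.597 and 0.534 at ZT20 and 0.613 and 0.675 at ZT8. Over astrocytes, microglia, oligodendrocyte precursors, neurons and few-UMI barcodes in 4 libraries, 20 values in all, the mean ran between 0.411 and 0.798 UMIs per barcode. The median depth of the same 20 groups ran between 813 and 13135 UMIs and their CPM between 50.3 and 681. Within neurons the number per nucleus was higher in deeper clusters. Clusters 5 and 16, the deepest pair in each library with medians of 15652 to 20581 UMIs, held between 0.790 and 1.13 Ptgds UMIs per nucleus. The other 5 neuron clusters, with medians of 6724.5 to 15325 UMIs, held between 0.517 and 0.888. In CPM the 7 clusters ran between 39.0 and 85.3. Free RNA gives UMIs in cells that do not express a gene, and its part in the Ptgds of these classes was not tested.

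The number per barcode was slightly lower at ZT20 than at ZT8 in neurons, astrocytes, precursors and few-UMI barcodes by their means, the direction opposite to oligodendrocytes. The unnamed neuron-like clusters were mixed. Cluster 8 held 0.826 and 0.840 at ZT20 and 0.775 and 0.709 at ZT8. Cluster 17 held 0.576 and 0.525 at ZT20 and 0.865 and 0.731 at ZT8, and in cluster 10 the times overlapped. Astrocytes gave 140 and 144 CPM at ZT20 and 167 and 163 CPM at ZT8, and neurons 54.6 and 50.3 CPM at ZT20 and 53.1 and 54.4 CPM at ZT8. With the neuron UMIs per nucleus of each library subtracted from its oligodendrocytes, Ptgds in that class was at 2197 CPM at ZT20 and 1035 CPM at ZT8.

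**Figure D4:**
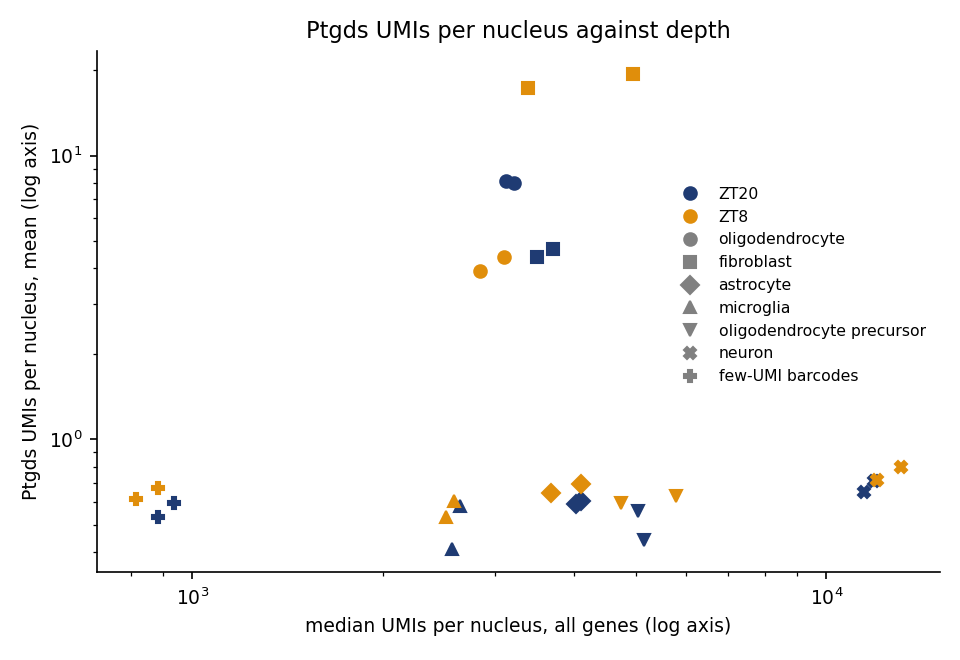
Ptgds UMIs per nucleus (vertical, log axis) against the median UMI depth (horizontal, log axis) for each class and library, with ZT20 and ZT8 in different colours. Neurons, astrocytes, microglia, precursors and few-UMI barcodes lie between 0.411 and 0.798 UMIs over depths of 813 to 13135, and oligodendrocytes lie above it at 8.03 and 8.11 UMIs at ZT20 and 3.92 and 4.37 UMIs at ZT8.

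In all kept barcodes pooled, Ptgds was at 200.2 and 195.8 CPM at ZT20 and at 184 and 191 CPM at ZT8, a log2 ratio of 0.08. A pooled level mixes how many cells of a class were captured with how much RNA each held, and these cannot be told apart in it. When each class kept its ZT20 level but took its ZT8 share of UMIs, the pooled level was 239 CPM. When each class kept its ZT8 level but took its ZT20 share it was 166 CPM. Without the few-UMI barcodes the pooled log2 ratio was -0.020.

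The 10 genes most like Ptgds were found by the Pearson correlation of log2(CPM + 1) over 38 sums of class and library, among 13902 genes. The sums share libraries and oligodendrocyte nuclei, so the values are a description. They were Neat1 (r = 0.885), Apod (0.846), Aspa (0.825), Ndrg1 (0.820), Kif13b (0.801), Cldn11 (0.799), Tcf12 (0.799), Kat2b (0.795), Gsn (0.788) and Atp1b3 (0.780). Apod encodes another secreted lipocalin, Aspa cleaves N-acetylaspartate, and Cldn11 is the tight junction protein of myelin. Apod had a mean over libraries of 1628 CPM in fibroblasts, 472 CPM in oligodendrocytes, 247 CPM in endothelial cells and 14.2 CPM in neurons. In oligodendrocytes, however, Apod was at 469 and 490 CPM at ZT20 and at 466 and 463 CPM at ZT8, a log2 difference of 0.07 that missed the threshold in edgeR (adjusted p = 0.497). In fibroblasts Apod was at 1344 and 4043 CPM at ZT20 and at 367 and 759 CPM at ZT8, higher at ZT20 where Ptgds was lower. Apod is a leading gene of fibroblast cluster 24. That cluster held 16 and 20 of the 22 and 25 fibroblast nuclei at ZT20 and 24 and 27 of the 44 and 42 at ZT8. Neither the Apod difference in fibroblasts nor the part of this makeup in it was tested. Neat1, a nuclear long noncoding RNA, averaged 1172 CPM in oligodendrocytes, 798 CPM in fibroblasts and 8.03 CPM in neurons.

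The other genes of prostanoid synthesis, signalling and removal were tested between ZT20 and ZT8 with edgeR's quasi-likelihood test on sums per library, adjusted over all genes by the Benjamini-Hochberg method. Of 34 genes listed, 33 were in the files. In oligodendrocytes 16 had enough counts and 3 passed, 2 higher and 1 lower at ZT20, beside 10.5% of all genes, 5.66% higher and 4.89% lower. In neurons 9 of 28 passed, 5 higher and 4 lower, beside 37.4% of all genes, 18.6% higher and 18.8% lower. In endothelial cells 1 of 9 passed, lower at ZT20, beside 3.41% of all genes, 2.25% lower. None of 14 passed in astrocytes, none of 13 in microglia and none of 9 in precursors, against 6.32, 0.66 and 0.86% of all genes. At an unadjusted p under 0.05 the counts there were 0, 2 and 0, and DESeq2 also called 0 in each, beside 1.07, 0.00847 and 0.117% of all genes. In all nuclei pooled 14 of 31 passed, 6 higher and 8 lower, beside 47.7% of all genes, 24.3% higher and 23.4% lower.

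The substrate of the synthases comes from membrane lipids. Pla2g4a, the cytosolic phospholipase A2 that frees arachidonic acid, was at 78.3 and 81.4 CPM in ZT20 oligodendrocytes, against 65.9 and 57.5 CPM in ZT8 oligodendrocytes, and rose by 0.40 on the log2 scale (edgeR adjusted p = 0.0163). Mgll, monoacylglycerol lipase, which frees arachidonic acid from the endocannabinoid 2-arachidonoylglycerol, was at 19.4 and 17.03 CPM at ZT20 and 30.8 and 37.8 CPM at ZT8, and fell by 0.89 (edgeR adjusted p = 0.000458). Ptges3, a cochaperone that also has prostaglandin E synthase activity, was at 124 and 127 CPM at ZT20 and 100.2 and 106 CPM at ZT8, and rose by 0.31 (edgeR adjusted p = 0.0229). The libraries of the 2 times did not overlap for any of the 3. None of the 3 was called by DESeq2, which called 2.26% of all genes there, and without ZT8 replicate 2 edgeR called 0 of them.

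Mgll was lower in neurons too, at 38.1 and 39.5 CPM at ZT20 and 55.9 and 55.1 CPM at ZT8 (log2 difference -0.56, edgeR adjusted p = 2.8e-10), and in the pool it fell by 0.42 (edgeR adjusted p = 1.1e-10). Pla2g4a stood the other way in the pool, at 7.17 and 7.13 CPM at ZT20 and 9.42 and 8.83 CPM at ZT8, where it fell by 0.39 (edgeR adjusted p = 0.000157). The share of oligodendrocyte nuclei was also smaller at ZT20, and its part in this value was not tested. Pla2g4b, another phospholipase A2, was at 8.23 and 6.99 CPM in neurons at ZT20 and at 4.45 and 5.07 CPM at ZT8, a rise of 0.63 (edgeR adjusted p = 0.000242).

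Ptgs2, the inducible cyclooxygenase, was scarce, with 26 and 16 UMIs in all neurons at ZT20 and 6 and 5 at ZT8. It rose by 1.64 on the log2 scale in neurons (edgeR adjusted p = 0.00759). It was not called without ZT20 replicate 1, without ZT8 replicate 2 or by DESeq2. Ptgs1, the constitutive cyclooxygenase, was at 4.55 and 3.88 CPM in the pool at ZT20 and 4.41 and 4.97 CPM at ZT8, and the times overlapped.

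Hpgds encodes the other prostaglandin D synthase, the haematopoietic type, which needs glutathione. In neurons it was at 23.8 and 23.5 CPM at ZT20 and 18.01 and 19.5 CPM at ZT8, a rise of 0.29 (edgeR adjusted p = 0.00109). In oligodendrocytes it gave only 11 and 5 UMIs at ZT20 and 13 and 9 at ZT8, and the times overlapped. Akr1b3, an aldose reductase with prostaglandin F synthase activity, rose by 0.25 in neurons (edgeR adjusted p = 0.0224). Its level in neurons was 12.6 and 14.2 CPM at ZT20 and 11.1 and 10.7 CPM at ZT8. Ptges3 rose by 0.16 in neurons (edgeR adjusted p = 0.00675). Of the 9 genes that edgeR called in neurons, DESeq2 called Mgll, Pla2g4b, Hpgds and Slco2a1, beside 16.9% of all genes. In the pool it called 8 of the 14, beside 27.3%. In the pool the synthesis genes Ptges3, Pla2g4b, Hpgds, Cbr1 and Pla2g6 rose, between 0.18 and 0.64 on the log2 scale.

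Ptgis, prostacyclin synthase, was lower at ZT20 in endothelial nuclei, in neurons and in the pool. Endothelial nuclei gave 1 and 2 Ptgis UMIs at ZT20 and 29 and 27 at ZT8 (edgeR adjusted p = 0.00161). The ratio of the summed levels was 0.113 (95% exact interval 0.0227 to 0.349, counting error only). The cluster makeup of this class differed between the times, as given above, and its part was not tested. The gene was not called without either ZT8 library, under stricter nucleus filters or by DESeq2, which called 0.294% of all genes there. In neurons Ptgis was at 5.84 and 6.22 CPM at ZT20 and 8.36 and 7.71 CPM at ZT8 and fell by 0.46 (edgeR adjusted p = 0.00163).

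The receptors of prostaglandin D2 were nearly absent from the counts. Ptgdr (DP1) gave 30 and 22 UMIs in all nuclei at ZT20 and 23 and 30 at ZT8, with overlapping levels of 0.527 and 0.399 CPM at ZT20 and 0.440 and 0.481 CPM at ZT8. Ptgdr2 (DP2) gave 3 and 3 UMIs at ZT20 and 2 and 4 at ZT8, too few for a test. Among the other receptors, Tbxa2r, for thromboxane, fell by 1.58 in the pool (edgeR adjusted p = 0.000585), with 14 and 8 UMIs at ZT20 and 28 and 38 at ZT8. The shares of cell classes in the pool differed between the times. Their part in this fall and in the other pooled receptor values was not tested. Pparg, a nuclear receptor that a metabolite of prostaglandin D2 can bind, was at 5.34 and 5.93 CPM in neurons at ZT20 and 7.02 and 7.11 CPM at ZT8 and fell by 0.37 (edgeR adjusted p = 0.0115). Ptger2 and Ptger3, receptors of prostaglandin E2, and Pparg passed narrowly in the pool, with edgeR adjusted p-values of 0.0471, 0.0479 and 0.048.

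Slco2a1, the transporter that takes prostaglandins up into cells for breakdown, was at 9.43 and 8.22 CPM in neurons at ZT20 and 16.6 and 17.8 CPM at ZT8, and fell by 1.01 (edgeR adjusted p = 1.5e-09). Ptgr2, a prostaglandin reductase, fell by 0.14 in the pool (edgeR adjusted p = 0.0236), and Hpgd, which inactivates prostaglandins, did not pass, at 6.31 and 6.33 CPM at ZT20 and 6.10 and 5.22 CPM at ZT8. The neuron class is a mixture whose makeup moved with time: its cluster 1, with Gad2, held 1140 and 1138 nuclei at ZT20 and 559 and 575 at ZT8, and its cluster 5 held 259 and 250 at ZT20 and 550 and 594 at ZT8. What part of the neuron differences comes with that makeup was not tested.

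Short lists around the known roles of the protein were also tested in oligodendrocytes, where 5.66% of all genes rose and 4.89% fell at ZT20. Of lipocalin and lipid carrier genes 1 of 4 tested rose, namely the retinoic acid binding protein gene Crabp1, on 11 and 10 UMIs at ZT20 and 1 and 0 at ZT8, a ratio of 36.3 (95% exact interval 5.84 to 1501, counting error only). Of retinoid handling genes none of 3 passed. Of the adenosine arm 1 of 4 fell, the nucleoside transporter gene Slc29a1, at 13.3 and 12.6 CPM at ZT20 and 26.1 and 24.1 CPM at ZT8 (log2 difference -0.92, edgeR adjusted p = 0.00261).

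Oligodendrocytes with and without Ptgds were then compared within each library, after thinning every nucleus to 1000 UMIs so that depth could not decide the split. At ZT20 there were 409 and 355 nuclei with Ptgds and 160 and 124 without, and at ZT8 515 and 587 with and 378 and 381 without. Median depths were 3230, 3127, 2839 and 3089 UMIs with Ptgds and 3139, 3121, 2855 and 3159 UMIs without it, in the order ZT20 replicates 1 and 2 and ZT8 replicates 1 and 2. A total of 472 of 11225 genes differed, or 4.2%, with 196 higher (1.75%) and 276 lower (2.46%) in nuclei with Ptgds. DESeq2 called 160 (1.06%), all among the 472, and without ZT8 replicate 2 edgeR called 299.

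Genes higher beside Ptgds were led by Kirrel3, an adhesion molecule of the immunoglobulin family. It was at 898 and 1034 CPM in ZT20 nuclei with Ptgds and 1998 and 1871 CPM in ZT8 nuclei with Ptgds, against 509 and 388 CPM in ZT20 nuclei without it and 960 and 940 CPM in ZT8 nuclei without it (log2 difference 1.04 ± 0.05 SE, edgeR adjusted p = 3.5e-31). Slc13a1, a sulfate transporter, was at 230 and 246 CPM with Ptgds at ZT20 and 127 and 119 CPM with it at ZT8, against 72.1 and 104 CPM without it at ZT20 and 60.6 and 52.7 CPM without it at ZT8 (1.27 ± 0.11, edgeR adjusted p = 2.6e-17). The alarmin gene Il33, a marker of mature oligodendrocytes, was higher by 0.83 ± 0.07. Synpr, Srgap1, Fam13c, Pakap and Pex5l completed the set, between 0.43 and 0.90 on the log2 scale. The symbol Pakap has 2 entries in the files, and the value is that of the stronger one. All 8 were higher with Ptgds in 4 of 4 libraries.

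Genes lower beside Ptgds were led by Enpp6. It was at 71.7 and 49.7 CPM with Ptgds at ZT20 and 54.1 and 51.5 CPM with it at ZT8, against 249 and 272 CPM without it at ZT20 and 178 and 190 CPM without it at ZT8 (-1.92 ± 0.10, edgeR adjusted p = 6.7e-30). Cntn3, a contactin of the cell surface, stood at -1.53 ± 0.08, and Anln, an actin-binding protein enriched in myelin, at -1.01 ± 0.06. Agmo, Grik1, Myo1e, Slco3a1 and Tln2 ranged between -1.42 and -0.82, and all 8 were lower in 4 of 4 libraries. Apart from Grik1 these genes are also among the 10 leading genes of subcluster 2, where Ptgds was lowest, so the split and the subclusters are not independent of each other.

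The oligodendrocyte lists are set beside 1.75% of all genes higher and 2.46% lower in this contrast. Of 13 myelin genes 2 were higher, Mal and Opalin, at 0.43 each, and 1 lower, Mbp at -0.14. Of 11 late mature genes 3 were higher, namely Il33, Cryab and Qdpr, and 4 lower, namely Anln, S100b, Apod at -0.49 and the transferrin gene Trf at -0.21. Klk6, a protease that marks a state of oligodendrocytes, stood at -2.33 ± 0.47, with 2.87 and 2.57 CPM with Ptgds at ZT20 and 2.54 and 1.98 CPM with it at ZT8, against 21.6 and 24.2 CPM without it at ZT20 and 7.58 and 6.02 CPM without it at ZT8. Its list partners Anxa5 and Hopx did not pass. Of 6 newly formed genes tested only Enpp6 passed, and Itpr2, Tcf7l2 and Gpr17 did not. Apod was also the lower one of the 2 lipocalin and lipid carrier genes tested. The median over all genes tested was 0.001.

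Of 10 prostanoid synthesis genes tested in this contrast 3 were lower beside Ptgds and none higher, against 2.46% and 1.75% of all genes. They were the lipid hydrolase genes Pla2g4a, Faah and Mgll, named after their values were seen. Pla2g4a was at 73.8 and 61.7 CPM with Ptgds at ZT20 and 46.4 and 36.2 CPM with it at ZT8, against 90.2 and 138 CPM without it at ZT20 and 91.8 and 89.6 CPM without it at ZT8 (-0.95 ± 0.13, edgeR adjusted p = 1.1e-08, lower in 4 of 4 libraries). In oligodendrocytes as a whole Pla2g4a was higher at ZT20, as was Ptgds, so the 2 genes had the same direction between times and opposite directions between nuclei. Faah, which breaks down the endocannabinoid anandamide, stood at -0.83 ± 0.19 and Mgll at -0.71 ± 0.19 (edgeR adjusted p = 0.00124 and 0.0111). Of 4 adenosine genes tested 1 was higher, against 1.75% of all genes, namely Nt5e, the ectonucleotidase that makes adenosine, at 0.74 ± 0.22 (edgeR adjusted p = 0.0281), in 3 of 4 libraries.

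The 2 comparisons moved single genes in different ways. Kirrel3, which had the smallest p beside Ptgds, fell by 0.86 at ZT20 in oligodendrocytes as a whole (edgeR adjusted p = 1.7e-98), and Synpr fell by 0.70 on the log2 scale. Slc13a1 rose by 1.06 at ZT20 (edgeR adjusted p = 8.8e-29). Il33, at -0.06, and Enpp6, at 0.14, missed the threshold between times (edgeR adjusted p = 0.619 and 0.470). Whether the difference between nuclei with and without Ptgds itself varied with time was tested as an interaction, and 1 of 11225 genes passed, 0.00891%, with 594 at an unadjusted p under 0.05.

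**Figure D5:**
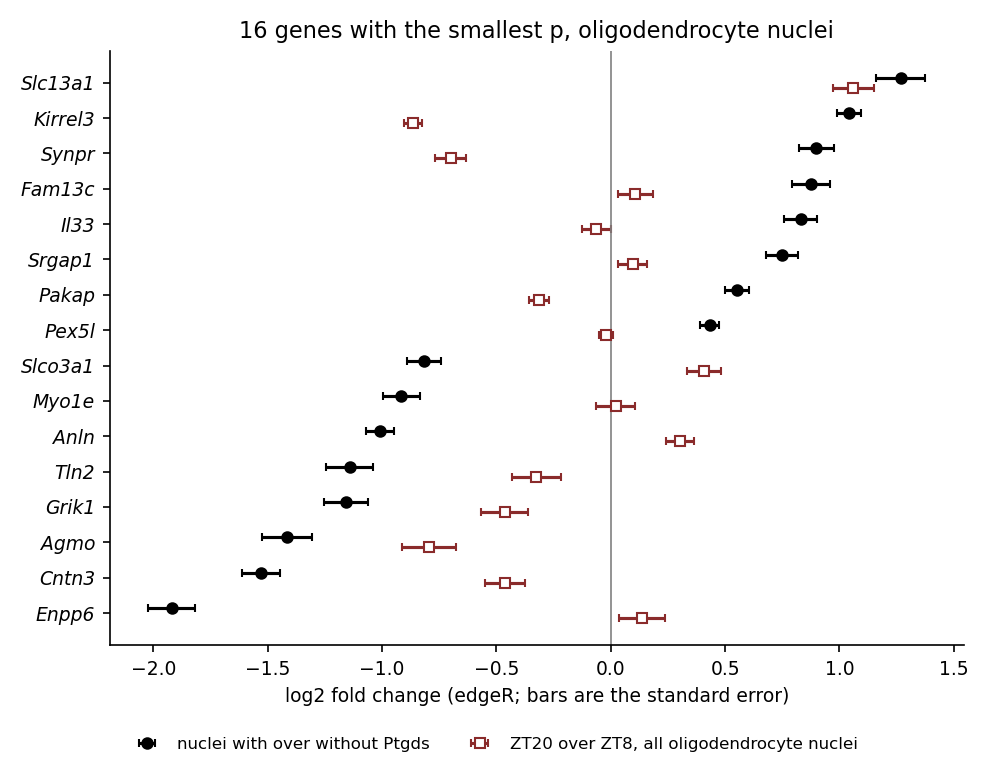
Log2 differences with standard errors for 16 genes in oligodendrocyte nuclei, filled circles for nuclei with over without Ptgds and open squares for ZT20 over ZT8. Enpp6 is lowest with Ptgds at -1.92 ± 0.10 but near 0 between times at 0.14, Kirrel3 lies at 1.04 with Ptgds and -0.86 between times, and Slc13a1 is positive in both, at 1.27 and 1.06.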

How the data were processed

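The deposited values are counts, 1 matrix of whole UMIs per gene and barcode for each library, made by the authors with Cell Ranger 7.0.0 per the file headers. The submitters' processing notes name Cell Ranger, STAR 2.6 and mm10. How introns and cell barcodes were treated is not given in the sources used here. Ptgds and the gene lists were chosen with earlier results of these data known.

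Barcodes were kept from 500 genes upward if mitochondrial UMIs made up no more than 5%. Scrublet's automatic threshold marked at most 1 nucleus per library, so the highest scores were removed, at 0.8% per 1000 nuclei. Clustering in scanpy 1.11.5 (Python 3.11.15) left Ptgds out and used 3000 variable genes, 40 components, 20 neighbours and Leiden (leidenalg 0.10.2) at resolution 1. A cluster took a name with a marker score of at least 0.7 (neurons 0.6), 3 markers detected, no more markers of another class among its 10 leading genes, and enough UMIs. Clusters 8, 10 and 17, with 1960 neuron-like nuclei, failed the rule on leading genes and stayed unnamed. Clusters with a median doublet score of 0.1 or more also stayed unnamed. These score limits were chosen with the clusters in view.

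UMIs were summed per library and class and tested with edgeR 4.0.16 in R 4.3.3 (filterByExpr, TMM, robust quasi-likelihood F test, two-sided, Benjamini-Hochberg over all genes tested, called under 0.05) in classes with at least 50 nuclei per library. The contrast of nuclei with and without Ptgds had the library as a block and left Ptgds out. DESeq2 1.42.0 was an alternative. Both designs were tested on simulated data. Named genes are the called prostanoid genes, the 10 genes most correlated with Ptgds, in the with and without contrast the 8 genes of smallest p on either side that move one way in all 4 libraries, and up to 4 members per oligodendrocyte list. Names starting with Gm or ending with Rik were passed over. Sequences are from RefSeq (GRCm38.p6) and annotation from GENCODE M21. Some results are not reported here.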

Additional observations from a re-analysis of the deposited data

Results flagged for a closer look

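Ptgds was higher at ZT20 in oligodendrocytes, with a log2 ratio of 0.92, and lower at ZT20 in fibroblasts at -1.67, in endothelial cells at -1.62 and in mural cells at -3.14. In each class both ZT20 libraries lay on 1 side of both ZT8 libraries, and the sides were opposite. The difference between the classes was not tested. The vascular and fibroblast values rest on 20 to 112 nuclei per library, and in mural cells a single nucleus of ZT8 replicate 2 held 400 UMIs. Mural makeup also differed, as cluster 20 held 2 and 3 nuclei at ZT20 and 83 and 79 at ZT8. In mural cluster 23 the Ptgds levels of the times overlapped, at 133 and 166 CPM at ZT20 and 287 and 141 CPM at ZT8. The part of makeup in the mural ratio was not tested.

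For the long noncoding RNA 9630013A20Rik, the difference between oligodendrocyte nuclei with and without Ptgds varied with time, the effect at ZT20 minus that at ZT8 being -2.66 on the log2 scale (interaction test, edgeR adjusted p = 0.0044). The gene is among the 10 leading genes of oligodendrocyte subcluster 3. It falls outside the rule for named genes and was singled out after its value was seen.

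Cluster 22, led by Bcas1, Tnr, Sox6 and Gpr17, took no class name and entered no comparison, yet held 4.30 and 2.92 Ptgds UMIs per nucleus at ZT20 and 2.98 and 2.51 at ZT8, in 20 and 24 nuclei at ZT20 and 46 and 41 at ZT8. This was above the 0.411 to 0.798 UMIs per barcode of astrocytes, microglia, oligodendrocyte precursors, neurons and few-UMI barcodes.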

How the results depend on the processing

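Values come from 2 libraries per time, and classes under 50 nuclei per library were not tested. The log2 ratio of Ptgds in oligodendrocytes kept its sign everywhere. It was 0.22 for nuclei called by marker UMIs alone and 1.09 with neuron UMIs per nucleus subtracted. With the ZT8 subcluster shares of UMIs at both times it was 0.83, and with 1 library left out 0.89 to 0.96. In fibroblasts it was -2.14 under stricter nucleus filters, -2.57 by marker UMIs alone, -1.26 with doublets kept and -2.09 in cluster 24 alone, and -1.88 to -1.49 with 1 library left out. In neurons it was -0.09 to 0.02 and in the pool 0.05 to 0.10 with 1 library left out; in the pool it was 0.021 under stricter filters and -0.020 without few-UMI barcodes. The cause of these changes was not tested.

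Calls of prostanoid genes, added over the classes tested and the pool, numbered 27, against 12 with DESeq2 and 17 to 23 with 1 library left out. A gene called in several classes counts each time, and the pool holds the nuclei of the classes, so these are not numbers of different genes. In all nuclei 14 became 8 with DESeq2 and 11 to 12 with 1 library left out. In neurons 9 became 4 with DESeq2 and 6 to 10. In oligodendrocytes 3 became 0 with DESeq2 and 0 to 2. In endothelial cells 1 became 0 with DESeq2 or stricter filters, 2 with no filter on low counts, and 0 to 1 with 1 library left out. Astrocytes, microglia and precursors gave 0 to 0. Genes differing between nuclei with and without Ptgds numbered 160 with DESeq2 in place of 472, and 299 to 374 with 1 library left out. The difference of Tcf7l2, not called, turned to 0.044 after thinning to 500 UMIs, and ran from -0.16 to 0.025 with 1 library left out. Among single prostanoid genes 58 of 243 settings lost the call and none turned.

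Libraries of equal replicate number showed little shared deviation, as the correlation of same-numbered deviations ran from -0.076 to 0.022. With 2 libraries per time this cannot tell whether they shared a day, litter or preparation. With the replicate block the calls of prostanoid genes, added in the same way, numbered 27. They were 12 in all nuclei, 11 in neurons, 3 in oligodendrocytes, 1 in endothelial cells and 0 in each other class.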
